A study of Mus musculus with 8 samples.

Results

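The levels of 9 plasma membrane transporter genes for amino acids were read in sorted hair follicle stem cells of mouse back skin. They are the system A genes Slc38a1, Slc38a2 and Slc38a4, the exchanger genes Slc1a4 and Slc1a5, the cationic carrier gene Slc7a1, the heavy chain gene Slc3a2 and its light chain genes Slc7a5 and Slc7a11. These 9 of the 28791 gene symbols in both tables were chosen by name, and each had 1 row in each table. Slc38a4 was in addition picked from its measured values, because its differences ran in opposite directions in the 2 pairs of libraries, so its differences below are a description with no test.

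Of the 8 samples of the series, 4 are RNA sequencing libraries, 1 in each group. The Ctnnb1 Het group was K15CrePGR;Ctnnb1+/fl; Rosa-YFPfl/stop/fl, and the Ctnnb1 cKO group was K15CrePGR;Ctnnb1fl/fl; Rosa-YFPfl/stop/fl. Both came from females of C57BL6/129Sv background on postnatal day 99, and both carried the Cre driver and the YFP reporter. K15CrePGR puts a hormone-inducible Cre under the keratin 15 promoter, so recombination is limited to the cells in which that promoter and the inducer act. No source used here gives the inducing treatment, or says whether a library is 1 mouse or a pool. The labels place this pair in telogen in one field and at the onset of anagen in another. In the text, cKO and Het stand for the libraries so labelled. The other pair were bulge cells of C57BL6 males on postnatal day 24, all Axin2LacZ/+, that is, with a LacZ reporter in 1 Axin2 allele. Sorting by LacZ activity split these cells, during the passage from rest (telogen) to growth (anagen), into a positive and a negative fraction, LacZ+ and LacZ-. The 4 chromatin samples were not analysed here.

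Values are FPKM, fragments per kilobase of transcript, scaled to the library's mapped fragments, which allow levels of different genes to be compared per length within a library. With 1 library in each group no difference has a replicate check, and all values describe these libraries. The 2 pairs were normalized separately and differ in strain, sex, age and genotype. An order of levels across the pairs therefore describes FPKM as listed and is not a measured difference. A difference is the log2 of (FPKM + 1) in the first library minus that in the second, taken where either library reached 1 FPKM. A gene was counted as called at a 2-fold difference on this scale, a log2 difference of 1 or more or of -1 or less. In RNA from sorted bulk cells, fewer cells that carry a transcript and less of it in each cell cannot be told apart.

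Amino acid transporters bring in the building blocks of protein synthesis and, for cystine, of glutathione. System A carriers move small neutral amino acids such as alanine and glutamine together with sodium. The heteromeric exchangers work as a pair of a heavy chain, which takes the complex to the membrane, and a light chain, which forms the pore and sets the substrate. Many of these genes are known targets of ATF4, the transcription factor of the amino acid response, and their activity feeds the growth kinase complex mTORC1. Slc38a4 is also an imprinted gene in the mouse, expressed mainly from the paternal allele.

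The state of the 4 libraries was read first. Ctnnb1 stood at 370 FPKM in cKO and 251 in Het. A gene-level value does not resolve the deleted part, so it checks neither label. Axin2, a feedback target of Wnt signalling, stood at 2.12 and 16.3 FPKM there, and at 19 and 9.10 FPKM in LacZ+ and LacZ-. The bulge marker Krt15 lay between 5951 and 7528 FPKM in 3 libraries, while LacZ- lists it at 0. The stem cell marker Cd34 lay between 223 and 752 FPKM in all 4. All 10 bulge markers were measured, with medians of 0.24 in the Ctnnb1 pair, where 0 were called, and -0.10 in the LacZ pair, where Krt15 was called higher and Cd34 lower. The Krt15 call rests on the listed 0, in a library where Krt5 stood at 8690 and Cd34 at 516 FPKM. Whether that 0 is a level or a missing value was not tested. Markers of other cells were present at lower sums than the bulge markers. Summed FPKM lay between 10.9 and 23.1 for 6 fibroblast markers, 3.46 and 8.37 for 5 leukocyte markers, 0.155 and 0.602 for 4 endothelial markers, 28.5 and 47.3 for 7 melanocyte markers and 3.90 and 20.5 for 6 adipocyte, muscle and blood markers. Mitf, at 43.2 and 44.0 FPKM in cKO and Het, and the hemoglobin gene Hba-a1, at 20.4 and 19.2 in LacZ+ and LacZ-, were the highest of these and above Slc38a4 in the same libraries. Mitf made up most of the melanocyte sums of cKO and Het, 45.4 and 47.3 FPKM. There Dct stood at 0.871 and 1.92 FPKM, and Tyrp1, Tyr, Pmel, Mlana and Kit were below 1. In LacZ+ and LacZ- Dct stood at 15.2 and 12.5 FPKM, also above Slc38a4, and Mitf at 9.41 and 13.6. The leukocyte marker with the highest single value, Cd68, stood at 5.20 FPKM in cKO, 2.39 in Het, 1.02 in LacZ+ and 1.90 in LacZ-. The endothelial marker with the highest single value, Vwf, reached 0.278 FPKM in LacZ+ and was lower in the other libraries. Of the markers of other cells Lum, Lyz2, Cdh5, Tyr, Mlana, Adipoq, Acta1 and Hbb-b1 are listed at 0 in at least 1 library. Measured in the 2 pairs were 2 and 3 of the fibroblast, 2 and 2 of the leukocyte, 0 and 0 of the endothelial, 2 and 4 of the melanocyte and 1 and 1 of the last list.

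Over all genes, 13014 were measured in the Ctnnb1 pair, of which 1.8% were called higher and 2.29% lower in cKO. In the LacZ pair 13283 were measured, of which 4.67% were called higher and 2.6% lower in LacZ+. Among genes above 0 in both libraries and without small RNA, clone, mitochondrial, Gm or Rik names, the shares were 0.854% and 1.23% of 10777 genes in the first pair and 3.59% and 1.72% of 10996 in the second. The name filter worked by spelling and let through the small nucleolar RNA snoR38, so these sets are not free of small RNAs. Counting any difference, 60.9% of all measured genes were higher in cKO and 63.4% were lower in LacZ+. Counts of higher and lower genes in the lists below stand beside these percentages. Where both LacZ libraries reached 5 FPKM, the 9252 genes had a median difference of -0.17, so differences relative to that median are given where they matter; the 9396 such genes of the Ctnnb1 pair had a median of 0.07. Centring on these medians turned the LacZ counts from 620 higher and 346 lower to 804 and 224.

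Among the 9 transporters, Slc38a2, Slc3a2, Slc1a5, Slc1a4, Slc7a1 and Slc7a5 were within 2-fold in both pairs, while Slc38a4 was lower in cKO than in Het and higher in LacZ+ than in LacZ-. Slc38a1 and Slc7a11 stayed below 1 FPKM in every library and were not measured. Of the 7 measured members, 1 was called lower and 0 higher in the Ctnnb1 pair, and 1 was called higher and 0 lower in the LacZ pair; both calls are Slc38a4, the gene picked for them, so the other 6 gave 0 calls in either pair beside the shares above. The median over the 7 was -0.20 in the Ctnnb1 pair, against 0.06 over all measured genes. For LacZ+ minus LacZ- it was -0.11 against -0.13 over all measured genes, and it turned to 0.06 with centring, 0.03 with upper-quartile scaling and 0.09 after rescaling without mitochondrial and small features.

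**Figure D1:**
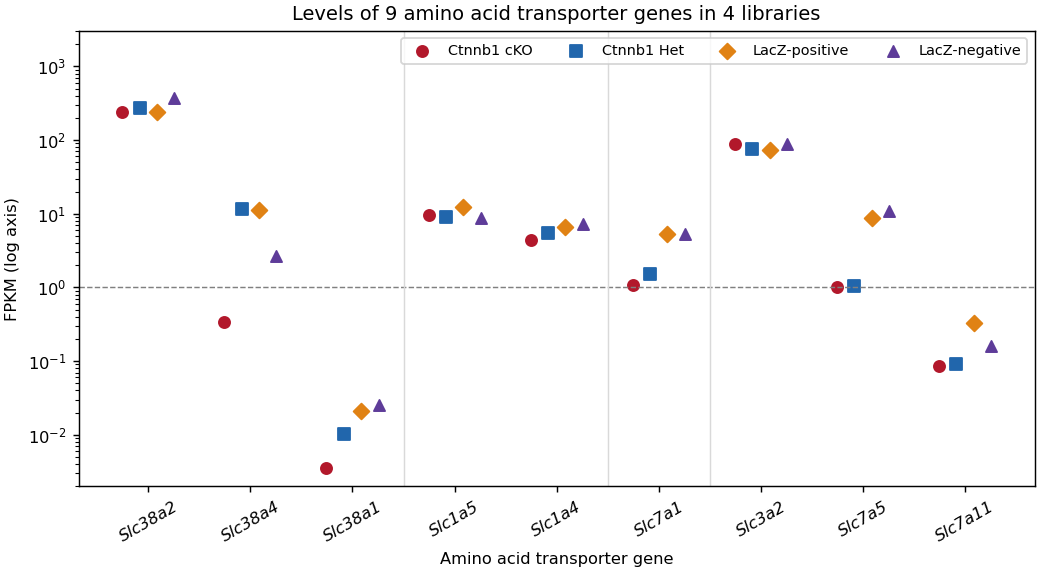
FPKM of the 9 transporter genes (vertical log axis) in the 4 libraries, 1 point per library, with system A genes on the left, then the Slc1 exchangers, Slc7a1 and the heteromeric chains; the dashed line marks 1 FPKM. Slc38a4 spans 0.345 to 11.5 FPKM, while Slc38a2 stays between 238 and 370 and Slc38a1 below 0.03.

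Slc38a4 (ENSMUSG00000022464, mm9 chromosome 15, 96825253 to 96886387) encodes a system A carrier best known from liver and placenta. It stood at 0.345 FPKM in cKO, 11.5 in Het, 11.2 in LacZ+ and 2.71 in LacZ-. In FPKM as listed, across pairs normalized separately, Het and LacZ+ were thus close in level and LacZ- lay between. The cKO value was below the minimum of 1 FPKM. The ratio of Het to cKO was 33.5 and the difference -3.22 on the log2(FPKM + 1) scale, on which the change of a gene this low is understated. The authors' deposited table gives the log2 fold change as -5.06, which equals the log2 ratio of its FPKM columns. Between LacZ+ and LacZ- the ratio was 4.13 and the difference 1.72, or 1.89 relative to the median of that pair.

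Among the 10777 genes with ordinary names and above 0 in both Ctnnb1 libraries, 1 had a lower difference than Slc38a4, namely Braf. Of all 13014 measured genes, 69 had a lower one. Between the LacZ fractions 73 of 10996 such genes, and 222 of all 13283, had a higher one. Over the 9 alternative settings, several of which cannot turn a sign or alter the value of a single gene, Slc38a4 lay between -4.71 and -1.63 in the first pair and between 1.07 and 2.08 in the second. No other measured member had a value beyond 2-fold in any of them.

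Apart from Pcna in the Ctnnb1 pair, the measured cell cycle genes ran the same way as Slc38a4 in both pairs. Of 15 genes on that list, 14 were measured in the Ctnnb1 pair, 13 were lower and 8 were called lower in cKO, with a median of -1.18; the 8 calls became 2 with a pseudocount of 5. Between LacZ+ and LacZ-, 15 of 15 were higher, 13 were called, and the median was 1.97. The mitotic kinase gene Cdk1 stood at 1.19 FPKM in cKO, 8.84 in Het, 28.8 in LacZ+ and 4.15 in LacZ-, which is the order of Slc38a4 except that LacZ+ was above Het. The cyclin genes Ccna2 (-1.82 and 2.67) and Ccnb1 (-1.67 and 2.44), the kinetochore gene Cenpf (-2.19 and 2.53) and the mitotic transcription factor gene Foxm1 (-1.08 and 2.51) had differences of the same signs. The list summed to 105 FPKM in cKO, 148 in Het, 349 in LacZ+ and 135 in LacZ-. The replication clamp gene Pcna was its highest member and made up much of these sums. Pcna stood at 79.1 FPKM in cKO, 71.8 in Het, 113 in LacZ+ and 76.6 in LacZ-, with differences of 0.14 and 0.55.

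Other cell states differed between the libraries as well. Epidermal differentiation markers summed to 637 FPKM in cKO, 607 in Het, 1975 in LacZ+ and 827 in LacZ-. All 4 were measured in both pairs, with medians of -0.07 and 1.05, and the suprabasal keratin genes Krt1 and Krt10 were called higher in LacZ+. Of 11 immediate early genes, which code for transcription factors and regulators induced quickly by stimuli, 11 were higher in cKO and 8 were called (median 1.29), led by Atf3, Nr4a1, Fos, Dusp1 and Egr1. In LacZ+ 11 were higher too and 2, Egr2 and Fosb, were called (median 0.59). The collagen gene Col1a1 stood at 10.3 FPKM in cKO, 3.72 in Het, 6.29 in LacZ+ and 13.1 in LacZ-, and was called higher in cKO. It does not stand for its list of 6 fibroblast markers, of which 2 were measured in that pair. The other, Col1a2, stood at 12.5 FPKM in cKO and 10.8 in Het (0.19). Of the 3 measured in the LacZ pair, Col1a1 (-0.95) and Col1a2 (-0.66) were lower in LacZ+ and Dcn was called higher (1.15). The part of these cell states in the values of Slc38a4 was not tested.

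The 5 genes whose pair of differences lay closest to that of Slc38a4 were Lgr6, Braf, snoR38, Top2a and Axin2. Likeness was the Euclidean distance between the 2 differences of each gene, over the 4 libraries and among 8275 genes above 0 in all of them and at 5 FPKM or more in each pair. Lgr6, an R-spondin receptor gene, lay at a distance of 0.21, with 2.04 FPKM in cKO, 26.2 in Het, 34.9 in LacZ+ and 11.6 in LacZ-. Braf, a kinase of the MAP kinase cascade, lay at 0.29, snoR38, a small nucleolar RNA whose name passed the filter by its spelling, at 0.59, the mitotic topoisomerase Top2a at 0.94 and Axin2 at 1.05. Braf, snoR38, Top2a and Axin2 share their table interval with 2 to 6 genes counting themselves, whereas Slc38a4 and Lgr6 are alone in theirs. Of the 8275 genes, 61 were called lower in the first pair, 145 called higher in the second, and 19 both, among them Top2a, Ccna2 and Cdk1 of the cell cycle list.

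**Figure D2:**
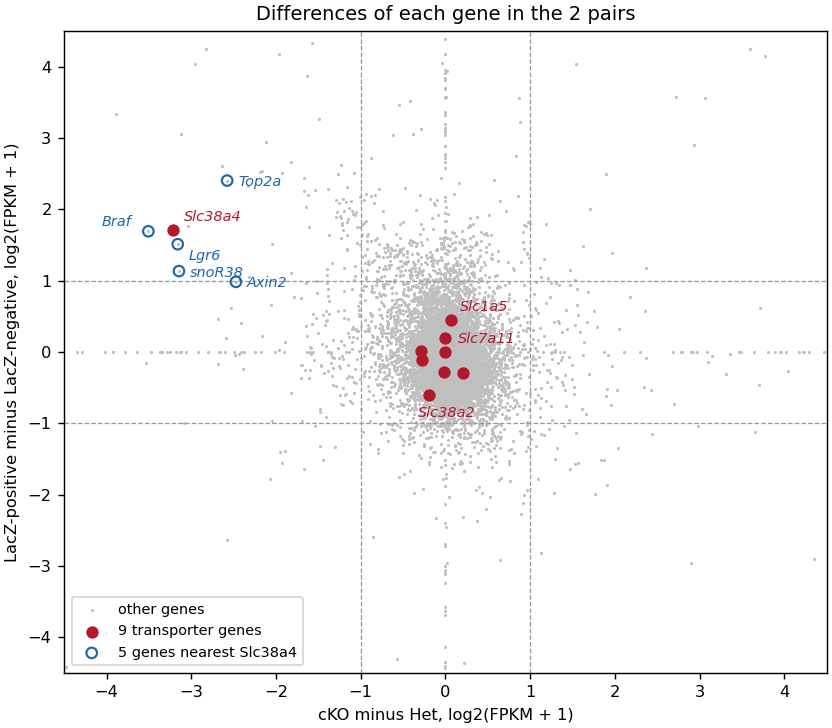
Difference of each gene in log2(FPKM + 1) between cKO and Het (horizontal) and between LacZ+ and LacZ- (vertical), for genes at 1 FPKM or more in any library and for all 9 transporter genes; dashed lines mark 2-fold, and 173 genes lie outside the axes. Slc38a4 sits at -3.22 and 1.72 beside Lgr6 and Braf, and the 6 other measured transporter genes (filled points) lie inside the central square, where Slc38a1 and Slc7a11, under 1 FPKM in every library, are drawn as well.

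Slc38a1, Slc38a2 and Slc38a4 lie in that order within 485 kb of mm9 chromosome 15, with 44.5 kb between the first and the second and 295 kb between the second and the last. The tables hold 2 further rows, a U6 small RNA and a clone, that fall into this stretch. Slc38a2 (ENSMUSG00000022462, 96517824 to 96530129) encodes the widely expressed, amino acid-regulated system A carrier. It was the highest of the 9 in every library, at 238 FPKM in cKO, 273 in Het, 242 in LacZ+ and 370 in LacZ-. It ranked 397th, 321st, 365th and 289th among the genes at 1 FPKM or more in these libraries. Its differences were -0.20 and -0.61, the second being -0.44 relative to the pair's median. LacZ- was thus the highest library for Slc38a2 and the lower of its pair for Slc38a4.

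Slc38a1 (ENSMUSG00000023169, 96401848 to 96473344), the system A carrier known best from brain, was the lowest of the 9 in each library. It stood at 0.00357 FPKM in cKO, 0.0103 in Het, 0.0209 in LacZ+ and 0.0253 in LacZ-. Part of the low values of the Ctnnb1 pair fall on steps: of 1168 rows under 0.05 FPKM in both libraries, 21.2% had a cKO to Het ratio within 3% of 1.04. In the LacZ pair 10.4% of 954 such rows lay within 3% of 0.932. On the step of 1.04 the ratio of Slc38a1 equals 1 to 3 within 3%, as 1 fragment against 3, or a multiple of both, would give. These whole numbers were picked as the smallest that match, so the match is no check of the fragment count. The depth behind other values is unknown. The ratio of Slc38a2 to Slc38a4 was 691 in cKO, 23.7 in Het, 21.7 in LacZ+ and 137 in LacZ-.

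The start regions of Slc38a2 and Slc38a4 are shown because these neighbours differed in level in every library and their sequences differ in CpG content. RefSeq promoter windows (build GRCm38.p6, 250 bases before to 50 after a start site) were found for 6 of the 9 genes, in 9 windows. No window matched Slc38a1, Slc7a5 or Slc1a5 by name. Slc38a4 has 3 windows and gene-level FPKM do not say which start was used; the one furthest upstream is printed. Each line gives the 250 bases before the start site on the minus strand, chr15:96699729-96699978 for Slc38a2 and chr15:97055957-97056206 for Slc38a4, with CpG dinucleotides in capitals.
Slc38a2: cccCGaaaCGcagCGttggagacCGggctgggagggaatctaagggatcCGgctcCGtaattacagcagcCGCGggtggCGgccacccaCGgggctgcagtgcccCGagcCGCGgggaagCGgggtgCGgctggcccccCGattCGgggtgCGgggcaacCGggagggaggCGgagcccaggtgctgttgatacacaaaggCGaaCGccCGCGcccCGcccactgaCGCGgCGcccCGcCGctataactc
Slc38a4: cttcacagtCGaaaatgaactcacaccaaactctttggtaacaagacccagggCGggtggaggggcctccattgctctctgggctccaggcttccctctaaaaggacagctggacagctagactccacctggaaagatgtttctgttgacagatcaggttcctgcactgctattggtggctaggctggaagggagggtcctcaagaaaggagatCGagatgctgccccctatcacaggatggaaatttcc
The Slc38a2 stretch holds 30 CpG and 72.0% G and C, and the Slc38a4 stretch 3 CpG and 52.8%. The other Slc38a4 windows hold 5 CpG each in the same stretch. Over 32851 windows of all genes the median was 6 CpG and the quartiles 2 and 16, so Slc38a2 lies above the upper quartile and Slc38a4 between the lower quartile and the median.

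The Slc1 exchangers move neutral amino acids in and out of the cell in a sodium-dependent way. Slc1a5 (ENSMUSG00000001918, mm9 chromosome 7, 17366694 to 17383623), which encodes the glutamine exchanger ASCT2, stood at 9.51 FPKM in cKO, 9.02 in Het, 12.4 in LacZ+ and 8.78 in LacZ-. LacZ+ was the highest, with a ratio of 1.41 and a difference of 0.45 (0.62 relative to the median), the largest positive difference in that pair among the 9 genes after Slc38a4. In the Ctnnb1 pair the difference was 0.07, turning to -0.06 after rescaling without mitochondrial and small features. Slc1a4 (ENSMUSG00000020142, chromosome 11, 20202182 to 20232716), which encodes the serine and alanine exchanger ASCT1, stood at 4.42, 5.54, 6.64 and 7.24 FPKM in the same order. Its differences were -0.27 and -0.11, and the second turned to 0.06 relative to the median, 0.03 with upper-quartile scaling and 0.09 with rescaling. Both genes varied by less than 2-fold over the 4 libraries, in FPKM as deposited.

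Slc7a1 (ENSMUSG00000041313, chromosome 5, 149138985 to 149211480), which encodes the arginine and lysine carrier CAT1, stood at 1.06 FPKM in cKO, 1.51 in Het, 5.40 in LacZ+ and 5.32 in LacZ-. Within the pairs the differences were -0.28 and 0.02. Both LacZ libraries were above both Ctnnb1 libraries. The same held for Slc7a5, described next, and for no other measured member by 2-fold or more: between the means of log2(FPKM + 1) the gap was 1.48 for Slc7a1 and 2.39 for Slc7a5. Of 13796 genes, 5.1% were higher in this way in the LacZ table and 3.62% lower. The 2 tables were normalized separately, and strain, sex, age and genotype differ between them along with the table, so these cannot be told apart.

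The heavy chain and its light chains were read together, since neither works alone at the membrane. Slc3a2 (ENSMUSG00000010095, chromosome 19, 8781371 to 8797859), the heavy chain 4F2hc or CD98, was second of the 9 in every library, at 88.2 FPKM in cKO, 76.3 in Het, 72.7 in LacZ+ and 89.1 in LacZ-. Its differences were 0.21 and -0.29, the second -0.12 relative to the median. Slc7a5 (ENSMUSG00000040010, chromosome 8), the light chain LAT1 for leucine and other large neutral amino acids, stood at 1.02 FPKM in cKO, 1.04 in Het, 8.64 in LacZ+ and 10.7 in LacZ-. The differences within the pairs were -0.01 and -0.28. Its table interval, 122434259 to 126869624, is shared with 151 other rows, so reads of overlapping genes can enter its value. Of 47 other genes of that interval with ordinary names and at 1 FPKM or more in any library, 1 was also called higher in the LacZ table, the DNA repair gene Fanca. The median gap of the 47 was 0.07, against 0.05 over all genes. The part of overlapping reads in the Slc7a5 value was not tested.

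Slc7a11 (ENSMUSG00000027737, chromosome 3, 50168857 to 50247535), the light chain xCT that imports cystine for glutathione synthesis, stayed at 0.0859 FPKM in cKO, 0.0905 in Het, 0.330 in LacZ+ and 0.161 in LacZ-. All are under 1 FPKM, and no difference was taken.

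Slc7a6, the light chain y+LAT2 that exchanges cationic for neutral amino acids and is not among the 9, was the highest light chain in every library. It stood at 60.0 FPKM in cKO, 53.0 in Het, 60.3 in LacZ+ and 42.8 in LacZ-. Slc7a5 made up 1.57%, 1.80%, 11.7% and 18.9% of the summed FPKM of the 6 light chain genes in the same libraries. That sum was 65.1, 57.7, 73.8 and 56.8 FPKM, and Slc3a2 stood at 1.36, 1.32, 0.984 and 1.57 times the sum. The Slc7a5 shares carry the limit of its shared interval, and the gap from 1.80% to 11.7% lies between pairs normalized separately. Of the 6 light chains 3 were measured in each pair, 0 were called, and the medians were 0.18 and 0.49. Within the LacZ pair, LacZ+ had the higher light chain sum and the lower Slc3a2 level, both by less than 1.5-fold.

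**Figure D3:**
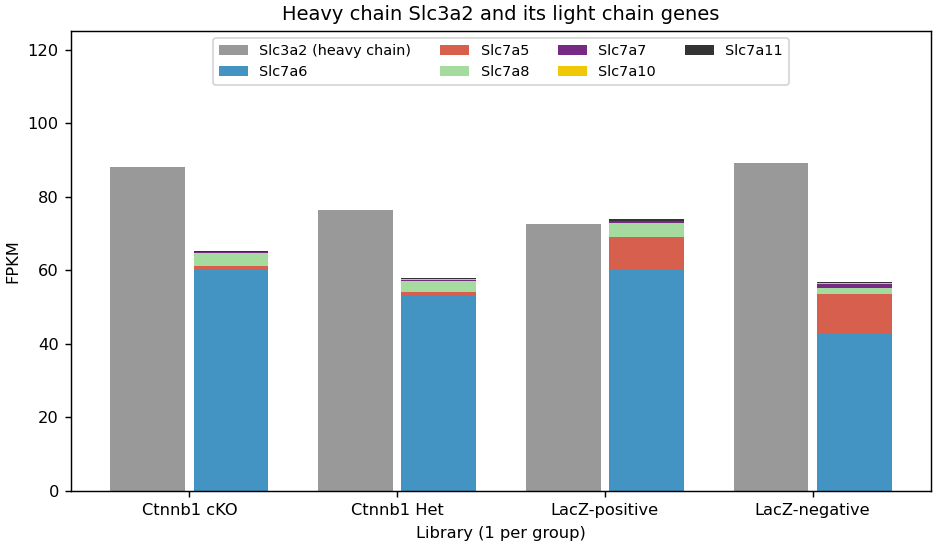
FPKM of the heavy chain Slc3a2 (grey) beside the stacked FPKM of its 6 light chain genes in each library, 1 library per group. Slc7a6 makes up most of every stack, and Slc7a5 is a visible share only in the LacZ libraries, at 8.64 and 10.7 FPKM. The 2 pairs were normalized separately, and the Slc7a5 interval is shared with 151 other rows.

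The order of levels changed between libraries below the second place. Slc38a2 and Slc3a2 were first and second everywhere, separated from each other and from the next gene by at least 2.70-fold, and Slc7a11 and Slc38a1 were last. In Het Slc38a4 ranked 3rd, at 1.28 times Slc1a5, and in cKO 7th, after Slc7a5. In LacZ+ Slc1a5, Slc38a4, Slc7a5, Slc1a4 and Slc7a1 followed each other in steps of 1.10 to 1.30. Neighbours closer than 1.5-fold were not taken as separated, since no replicate gives their spread. In LacZ- Slc7a1 stood at 1.97 times Slc38a4, which ranked 7th.

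The response element of ATF4 was looked for because several of the 9 are known targets of this pathway. The motif TGATGNAA, on either strand, was found in the windows of Slc7a11 and Slc1a4, which are 2 of the 9 windows, and in 3.97% of the 32851 windows of all genes. Slc7a11 holds it once on each strand, with 11 bases between the matches, in chr3:50443633-50443699. In Slc1a4 the match starts 4 bases before the start site, in chr11:20332710-20332737. Both stretches are on the minus strand and the capitals mark the motif.
Slc7a11: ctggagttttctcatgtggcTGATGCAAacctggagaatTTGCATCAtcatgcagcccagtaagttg
Slc1a4: cctccagcgtgcctcctgcgTTGCATCA
A form of the TCF/LEF core, the letters CTTTGA on either strand, was found in the Slc3a2 window and 1 of the 2 Slc7a1 windows. It was found in 16% of all windows. None of the 3 Slc38a4 windows held TGATGNAA or CTTTGA. Other forms of the TCF/LEF motif were not searched, so windows without CTTTGA are not shown to lack it. A match describes letters in these windows and not a bound site. Slc7a11 was among the lowest of the 9 and Slc1a4 differed by less than 2-fold in both pairs.

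Genes that act around these transporters were described from lists. Of 43 other amino acid transporter genes, 18 were measured in the Ctnnb1 pair, 9 higher and 9 lower, with 0 called and a median of -0.0020. For LacZ+ minus LacZ- 23 were measured, 12 higher and 11 lower; 1 was called higher and 2 lower, with a median of 0.04 (0.21 with centring). Slc6a6, the taurine carrier, was the highest, at 437 FPKM in cKO, 382 in Het, 280 in LacZ+ and 531 in LacZ-. It was above Slc38a2 in each library, by 1.5-fold or more in cKO alone, and held 55.0% to 69.5% of their total. Slc43a2, the leucine carrier LAT4, which needs no heavy chain, was called higher in LacZ+ at 10.4 against 3.34 FPKM. The glutamine carrier gene Slc38a3 was called lower at 4.24 against 11 FPKM, and the cationic carrier gene Slc7a3 at 0.470 against 2.68. The 1 call higher became 6 with a pseudocount of 0.1 or after rescaling.

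Of 28 integrated stress response and ATF4 target genes, 27 were measured in the Ctnnb1 pair, 17 higher and 10 lower, with a median of 0.06, and 1 was called higher, the stress factor Atf3 (1.69). Atf3, at 246 FPKM in cKO, 75.8 in Het, 108 in LacZ+ and 59.8 in LacZ-, is also on the immediate early list described above. For LacZ+ minus LacZ- 27 were measured, 0 were called and the median was -0.07. Atf4 stood at 116 FPKM in cKO, 85.1 in Het, 99.5 in LacZ+ and 130 in LacZ-, and asparagine synthetase, Asns, at 11.3, 8.97, 20.5 and 22.6 FPKM. On the log2(FPKM + 1) scale the other measured genes of the list stayed inside 2-fold; for low genes this scale understates the ratio, as for the folate enzyme gene Mthfd2 at 0.423 FPKM in cKO and 1.04 in Het (-0.52).

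Of 35 amino acid sensing and mTORC1 genes, 34 of which are in the tables, 32 were measured in each pair and 0 were called in either; the medians were 0.0072 and -0.16, and the highest member, the mTORC1 activator Rheb, stood between 80.3 and 89.4 FPKM. Of 20 cytosolic aminoacyl-tRNA synthetase genes, all were measured and 0 called, with medians of 0.09 and -0.18. Of them 14 were higher in the first pair and 17 lower in the second. The glutaminyl-tRNA synthetase gene Qars was the highest of these, at 99.8 to 141 FPKM. Over all measured genes 60.9% were higher in the first pair and 63.4% lower in the second. Relative to the pair's own median, the second medians of both lists were 0.01 and -0.01. Of 24 glutamine, glutamate and serine metabolism genes, 22 were measured in each pair. None was called in the first (median -0.05), and in the second (median -0.14) the arginase gene Arg2 was called higher. Glud1, the glutamate dehydrogenase gene with the highest single value of that list, stood at 80.4 to 121 FPKM.

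Glutathione synthesis and NRF2 target genes held members with opposite values in the pairs. Of 19 genes, 18 were measured in each pair, with medians of 0.21 and -0.13, the second 0.04 with centring. Txn1, the thioredoxin gene, stood at 370 FPKM in cKO and 170 in Het (1.11, called higher) and at 202 in LacZ+ and 380 in LacZ- (-0.91). Its reductase gene Txnrd1 stood at 1.79 and 4.30 (-0.93) and at 11.5 and 4.61 FPKM (1.15, called higher). Gclc, the catalytic subunit that uses the cysteine brought in as cystine, stood at 18.5 and 17.9 and at 39.1 and 80.4 FPKM (-1.02, called lower). With centring the Gclc difference fell inside 2-fold.

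Of 41 imprinted genes, which do not include Slc38a4 and of which 40 are in the tables, 24 were measured in the Ctnnb1 pair, 13 higher and 11 lower, with a median of 0.07, and 22 in the LacZ pair, 7 higher and 15 lower, with a median of -0.13 (0.04 with centring). These counts stand beside 60.9% higher in cKO and 63.4% lower in LacZ+ over all measured genes. The 1 call in the first pair was Dlk1, a secreted and membrane-bound regulator of growth (3.31), opposite in sign to Slc38a4. Slc22a3, an organic cation transporter gene, had the signs of Slc38a4 without a call, at 0.187 FPKM in cKO and 1.16 in Het (-0.86) and at 4.04 in LacZ+ and 2.53 in LacZ- (0.51). The 1 call in the second was Dcn, at 2.16 against 0.423 FPKM, a matrix gene that is also on the fibroblast list. Gnas, the highest of the list, stood between 180 and 247 FPKM.

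**Figure D4:**
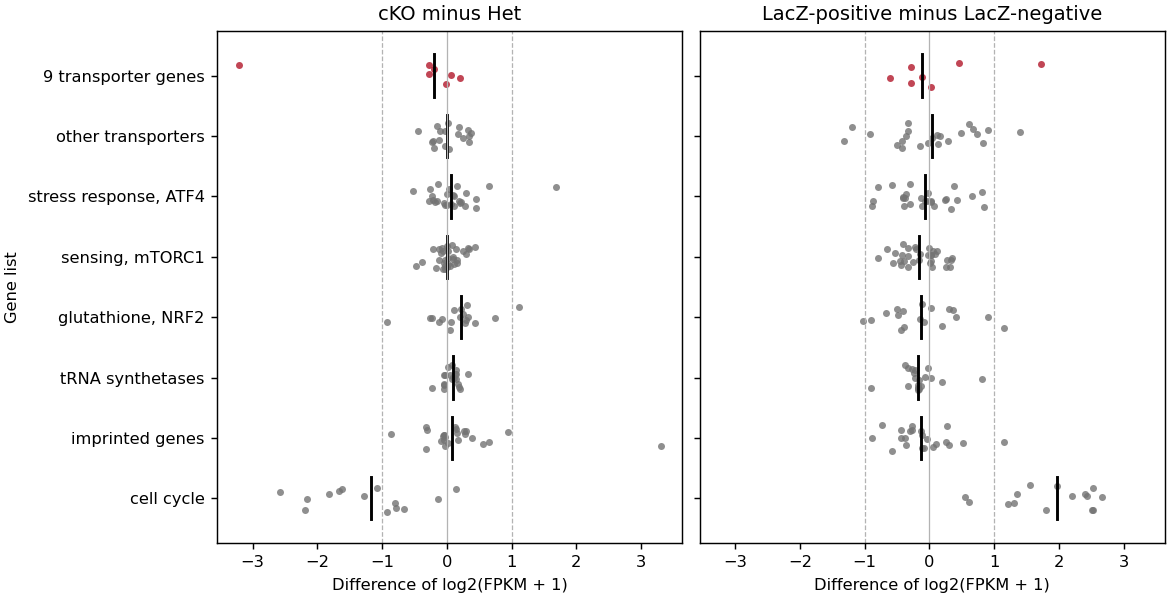
Differences in log2(FPKM + 1) of the measured genes of 8 of the lists, named on the vertical axis, 1 point per gene with the list's median as a bar, for cKO minus Het on the left and LacZ+ minus LacZ- on the right; dashed lines mark 2-fold. Slc38a4 is the single transporter of the 9 beyond 2-fold, at -3.22 and 1.72, and the cell cycle medians lie at -1.18 and 1.97; the immediate early and epidermal differentiation lists, with medians up to 1.29 and 1.05, are not drawn.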

How the data were processed

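RNA of 4 sorted cell populations was sequenced, 1 library each; per the labels' protocols RNA integrity numbers were above 8 and a TruSeq mRNA kit was used. The authors deposited 2 tables of 32091 rows, 1 per pair, whose values are FPKM per the file headers. TopHat2 (2.0.4), TopHat, Bowtie and Cufflinks (2.1.1) appear in the submitters' processing notes, beside mm9 and GRCm38, with no roles; how multi-mapped reads and strand were treated is not stated in them. Coordinates are taken as mm9, since on chromosome 7 they reach 152509964, past the last gene end of GRCm38 (145324059). A log2 fold change that the authors deposited for the first pair matched within 0.01 for 9 of 9 members.

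Rows of 1 symbol were summed, and 25 symbols turned into dates were restored by identifier. With pandas 2.3.3, differences of log2(FPKM + 1) were taken at 1 FPKM or more in either library; no test is possible with 1 library per group. The members and the 17 lists were chosen with earlier results of these data known. Named were all members, the highest gene of each list, at most 5 genes per list and pair past 2-fold at 5 FPKM or more, and the 5 genes nearest Slc38a4. Ctnnb1, Atf4, Asns, Fanca, Mthfd2, Slc22a3, Slc7a3, Arg2, Dcn, Col1a2, Dct, Tyrp1, Pmel, Kit and the markers listed at 0 fall outside this rule. They were named after their values were seen, and for the other markers only values of whole lists are given. Other settings tried were pseudocounts 0.1 and 5, no minimum, a minimum of 5 FPKM, median centring, upper-quartile scaling, rescaling without mitochondrial and small features, and the highest row per symbol; leaving out zeros and small features was chosen after seeing the data. FPKM come without counts here, so the depth is unknown. The result of 1 gene of the glutamine, glutamate and serine list is not reported here. The differencing step was run on a library set against a copy of itself with known changes and no noise, which checks its arithmetic alone. Changes in low genes, the likeness order, the low-value steps and the motif search were not covered.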

Additional observations from a re-analysis of the deposited data

How the results depend on the processing

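With 1 library per group no spread is known; a difference was taken as moved at 1.5-fold or more, and a count likewise. No paired analysis was possible because each group has 1 library. The difference of Slc38a4 in the Ctnnb1 pair, -3.22, became -4.71 with pseudocount 0.1, -1.63 with pseudocount 5 and -4.05 after rescaling without mitochondrial and small features, which also lowers the weight of the pseudocount. In the LacZ pair, 1.72 became 1.07 with pseudocount 5. The remaining 14 of 18 values of Slc38a4, and all 106 of the other members, moved by less than 1.5-fold. Part of these values was fixed in advance. No minimum, a minimum of 5 FPKM, the highest row per symbol and leaving out zeros and small features cannot alter a single gene here. Under them Slc38a4 stayed at -3.22 and 1.72. Of 486 counts and medians of lists, 441 moved by less. The cell type marker, epidermal differentiation and immediate early lists were left out of these, so their calls were not run under the other settings. Among called counts, the 8 cell cycle genes lower in the cKO library became 3 with a minimum of 5 FPKM and 2 with pseudocount 5. The count of 1 transporter of the 43 higher in LacZ+ became 6 with pseudocount 0.1 and 6 with the rescaling.

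Over all genes, 234 higher and 298 lower in the Ctnnb1 pair became 144 and 159 with pseudocount 5 and 92 and 133 without zeros and small features; rescaling gave 103 and 272. In the LacZ pair, 620 and 346 became 282 and 178 with pseudocount 5, 395 and 189 without zeros and small features and 754 and 136 with rescaling, and 346 lower became 528 with pseudocount 0.1 and 224 with centring. Upper-quartile scaling gave 754 higher and 242 lower.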
